A study of Mus musculus with 16 samples.

Results

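The genes described here make, store, take up and break down catecholamines, the small amines dopamine, noradrenaline and adrenaline. They are Gch1, Th, Ddc, Dbh, Pnmt, Slc18a1, Slc18a2, Slc6a2 and Maoa, 9 of the 24091 genes in the count tables, found by their symbols. On mm10, per the deposited tables, Th lies at chr7:142892776-142899966, Ddc at chr11:11814101-11898144, Dbh at chr2:27165507-27183204 and Slc18a2 at chr19:59260878-59296012. Slc6a2 lies at chr8:92961047-93001667, Slc18a1 at chr8:69037708-69089222, Gch1 at chr14:47153895-47189402, Pnmt at chr11:98386632-98388097 and Maoa at chrX:16619698-16687812. The genes were chosen because Slc6a2, Dbh and Th were higher in fetal pancreas of Tff2 KO embryos, so their values in that tissue are a description and carry no test. Polyadenylated RNA was sequenced from 16 mouse libraries. KO animals (Pdx1:Cre;Tff2fl/fl) expressed Cre under control of Pdx1 regulatory sequence, which is on in pancreatic progenitors of the embryo, and were homozygous for floxed Tff2, the gene of the secreted peptide trefoil factor 2. Control animals (Tff2fl/fl) carried the same floxed alleles without Cre, so the deletion and the presence of Cre cannot be told apart. Whole pancreata came from 3 KO and 3 control embryos at embryonic day 16.5 (E16.5), with dorsal and ventral lobes together and the spleen dissected away. Islets, picked by hand after collagenase digestion, came from 5 KO and 5 control male mice aged 60 weeks. Gene counts totalled 14866194 to 22699934 in the pancreas libraries and 22595400 to 32385042 in those of islets. Levels are CPM, a gene's reads scaled to a common library size (with TMM, which corrects for composition), and KO and control libraries are named by the animal number in their label.

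Catecholamines are made from tyrosine. Tyrosine hydroxylase turns it into L-DOPA with a pterin cofactor, aromatic amino acid decarboxylase turns L-DOPA into dopamine, and dopamine beta-hydroxylase makes noradrenaline inside vesicles that a vesicular monoamine transporter has filled. Sympathetic neurons stop there, take released noradrenaline back up through the plasma membrane and break it down with monoamine oxidase. Those chromaffin cells of the adrenal medulla that make adrenaline go on to it with phenylethanolamine N-methyltransferase. Sympathetic fibres reach the pancreas and its islets, and endocrine cells of the pancreas also express some of these enzymes.

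RefSeq start-site windows (GRCm38.p6, the assembly also called mm10), running from 250 bases before to 50 after an annotated start, were found for 6 of the 9 genes, namely Th, Ddc, Dbh, Slc18a2, Gch1 and Maoa. The windows of Th (chr7:142899946-142900245, minus strand), Dbh (chr2:27165257-27165556, plus strand) and Slc18a2 (chr19:59260628-59260927, plus strand) are shown because these 3 genes, of different steps of the pathway, were all higher in KO pancreata. Capitals mark matches on either strand to TGACGTCA, the palindromic cyclic AMP response element, and to ATTA, the core bound by homeodomain factors such as Phox2a.
Th: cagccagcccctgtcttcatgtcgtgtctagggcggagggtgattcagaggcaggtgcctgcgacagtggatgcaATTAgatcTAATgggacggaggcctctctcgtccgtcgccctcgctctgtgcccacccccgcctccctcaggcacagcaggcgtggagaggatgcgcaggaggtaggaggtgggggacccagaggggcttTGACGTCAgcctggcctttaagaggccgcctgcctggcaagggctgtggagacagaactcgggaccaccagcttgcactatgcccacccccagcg
Dbh: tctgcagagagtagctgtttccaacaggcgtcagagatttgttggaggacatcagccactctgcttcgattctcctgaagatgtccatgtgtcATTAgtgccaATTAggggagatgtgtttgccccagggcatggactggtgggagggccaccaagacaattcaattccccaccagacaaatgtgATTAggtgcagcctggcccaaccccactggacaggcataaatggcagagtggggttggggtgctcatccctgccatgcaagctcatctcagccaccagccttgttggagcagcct
Slc18a2: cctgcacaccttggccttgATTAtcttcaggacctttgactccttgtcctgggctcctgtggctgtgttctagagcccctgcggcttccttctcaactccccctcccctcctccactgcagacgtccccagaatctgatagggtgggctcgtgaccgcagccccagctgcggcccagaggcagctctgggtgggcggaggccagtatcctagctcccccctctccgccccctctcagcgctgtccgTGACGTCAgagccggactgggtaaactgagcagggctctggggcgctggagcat
The response element begins 45 bases before the start in Th and 4 bases before it in Slc18a2, and it is present in 1.79% of all 32851 windows of this length. ATTA, or TAAT on the other strand, occurs 3 times in the Dbh window, 2 times in that of Th and 1 time in that of Slc18a2, and at least 1 time in 58% of all windows. A match is a description of these letters and not evidence of binding. The pair of Ddc windows held 3 and 2 ATTA matches and no response element, and the Gch1 and Maoa windows held neither.

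Tff2 itself measured 2.70, 9.95 and 1.60 CPM in KO pancreata 01, 18 and 19, against 38.7, 22.7 and 35.1 CPM in control pancreata 02, 08 and 13, and fell by 2.80 on the log2 scale (SE 0.535, edgeR adjusted p = 0.0297). Leaving out 1 library gave log2 fold changes between -3.89, without KO 18, and -2.39, without KO 19, and without control 02, 08 or 13 the adjusted p in edgeR was 0.15, 0.108 and 0.0837. Which exons are floxed is not stated, so the reads that remain may lie outside the deleted part. Acinar genes summed to 46100 to 81700 CPM in KO pancreata and to 91200 to 104000 CPM in controls, so both sets carry the defining transcripts of exocrine pancreas, and islet endocrine genes summed to 126000 to 146000 CPM in KO islets and to 131000 to 159000 CPM in control islets. KO pancreas 01 stood apart in its content of the liver transcript Alb, at 615 CPM against 26.9 to 100 CPM in the 5 others, which include KO pancreata 18 and 19. In KO pancreas 18 Xist was at 1.56 CPM and Ddx3y at 134 CPM, where the 5 other pancreata had 1088 to 1808 CPM of Xist and at most 0.172 CPM of Ddx3y. Where liver content or sex moved with a catecholamine gene, its part in the result was not tested.

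Of the 9 catecholamine genes, 6 had every KO pancreas above every control pancreas (Th, Dbh, Slc6a2, Slc18a1, Slc18a2 and Maoa), 2 overlapped between genotypes (Ddc and Gch1) and 1, Pnmt, had too few reads to enter the fit. Over all 14914 genes tested, 15% had every KO pancreas above every control and 16.1% had every KO pancreas below. In the edgeR fit 4 of the 8 genes fitted lay past an adjusted p of 0.05, all higher in KO, against 3.75% of all genes in that direction, 2.68% in the other and 6.43% in either. Without control 02, 08 or 13 none of them lay past it. Since this contrast chose the genes, nothing is read from these shares. A change in the number of cells of a type and a change in RNA per cell, up or down, cannot be told apart in whole tissue, here and below.

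Gch1 overlapped between the genotypes and Th did not. Gch1, GTP cyclohydrolase, which starts synthesis of the pterin cofactor of tyrosine hydroxylase, measured 25.3, 19.4 and 14.1 CPM in KO pancreata 01, 18 and 19, against 20.4, 21.5 and 22 CPM in control pancreata 02, 08 and 13. The KO values lay on both sides of the controls, with a log2 fold change of -0.11 (SE 0.185). Th, tyrosine hydroxylase, the rate-limiting enzyme, measured 55.2, 21.0 and 10.5 CPM in KO pancreata 01, 18 and 19, against 2.74, 1.74 and 2.24 CPM in control pancreata 02, 08 and 13. No KO value came near the controls, and the log2 fold change was 3.68 (SE 0.612). The 1530 KO reads and 130 control reads of Th gave a scaled ratio of 13.3 (exact 95% interval 11.1 to 16.1, covering counting error only).

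Ddc, aromatic amino acid decarboxylase, which also serves serotonin synthesis, measured 111.1, 87.1 and 76.3 CPM in KO pancreata 01, 18 and 19, against 84.9, 99.6 and 69.2 CPM in control pancreata 02, 08 and 13. The groups overlapped, with means of 91.5 ± 17.8 and 84.6 ± 15.2 CPM in KO and control pancreata (SD, n = 3 each) and a log2 fold change of 0.11 (SE 0.163). Without KO pancreas 01 this fold change was -0.04, and without control 13 it was -0.01. Reads of Ddc cannot be separated from those of 1700042O10Rik, which overlaps it on the other strand, as no source used here states whether counting used strand.

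Dbh, dopamine beta-hydroxylase, which makes noradrenaline and marks noradrenergic and adrenergic cells, was close to the detection limit in controls. It had 1813, 615 and 329 reads in KO pancreata 01, 18 and 19, against 3, 6 and 6 reads in control pancreata 02, 08 and 13. These correspond to 96.0, 41.6 and 19.5 CPM in KO and to 0.137, 0.336 and 0.345 CPM in control pancreata. The log2 fold change was 7.61 (SE 0.838), and the scaled ratio of summed reads was 208 (exact 95% interval 126 to 372, counting error only).

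Pnmt, the enzyme that converts noradrenaline to adrenaline, sets only those chromaffin cells that make adrenaline apart from sympathetic neurons. It had 3, 1 and 1 reads in KO pancreata 01, 18 and 19, against 0, 1 and 0 reads in control pancreata 02, 08 and 13. No library exceeded 3 reads, which is the floor used here and equals 0.137 to 0.203 CPM in a pancreas library, and no fold is given. In KO pancreas 01, Dbh was counted 1813 times and Pnmt 3 times.

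The vesicular transporters load monoamines into storage granules. Slc18a2 (VMAT2), the form of neurons, measured 61.1, 31.2 and 18.0 CPM in KO pancreata 01, 18 and 19, against 6.11, 7.84 and 8.62 CPM in control pancreata 02, 08 and 13. Its groups did not overlap and the log2 fold change was 2.30 (SE 0.413). Slc18a1 (VMAT1), the form known from chromaffin and enterochromaffin cells, measured 17.3, 7.45 and 6.18 CPM in KO pancreata 01, 18 and 19, against 3.33, 3.58 and 3.79 CPM in control pancreata 02, 08 and 13. KO pancreas 01 was above the other KO libraries, which were above all controls, and the log2 fold change of 1.54 (SE 0.376) was 0.94 without KO pancreas 01. Slc18a1 overlaps Atp6v1b2 on the opposite strand, so the division of reads between them is uncertain. Per kb of transcript, Slc18a2 had 4.94, 5.86 and 4.07 times the level of Slc18a1 in KO pancreata 01, 18 and 19, against 2.57, 3.06 and 3.18 times in control pancreata 02, 08 and 13.

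Slc6a2, the noradrenaline transporter that returns released noradrenaline to the nerve ending, was the furthest apart. It had 3142, 1037 and 444 reads in KO pancreata 01, 18 and 19, against 3, 10 and 4 reads in control pancreata 02, 08 and 13. In CPM these were 166.3, 70.2 and 26.4 in KO and 0.137, 0.560 and 0.230 in control pancreata. The log2 fold change was 8.17 (SE 0.975), and the scaled ratio of summed reads was 308 (exact 95% interval 192 to 529, counting error only). The corresponding dopamine transporter, Slc6a3, had 3 reads over the KO pancreata and 4 over the controls.

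Maoa, monoamine oxidase A, an outer mitochondrial membrane enzyme of many cell types that degrades noradrenaline and serotonin, was well expressed in both genotypes. It measured 170.1, 110.4 and 80.5 CPM in KO pancreata 01, 18 and 19, against 62.2, 72.5 and 58.6 CPM in control pancreata 02, 08 and 13. KO pancreas 19 lay just above the highest control, and the log2 fold change was 0.90 (SE 0.240). Maoa lies on the X chromosome, and the KO library with Ddx3y reads, 18, lay between the other KO libraries.

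**Figure D1:**
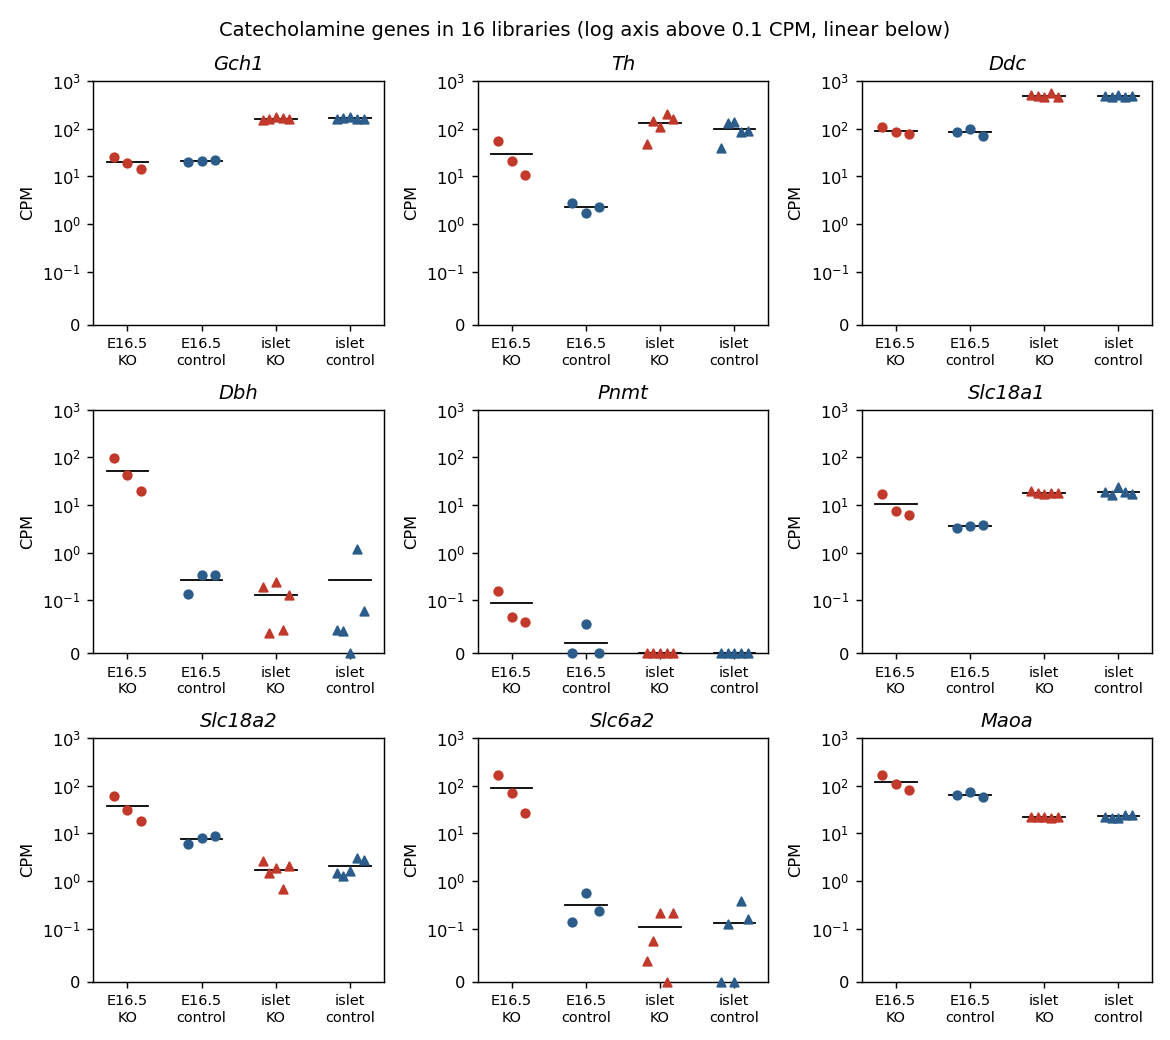
Level of each gene in CPM (vertical axis, logarithmic above 0.1 CPM and linear below) in KO and control E16.5 pancreata (circles) and KO and control islets (triangles), with lines at group means. Dbh and Slc6a2 stand between 19.5 and 166.3 CPM in KO pancreata and under 1.2 CPM in every other group, while Th, Ddc and Gch1 are abundant in islets of both genotypes.

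The KO pancreata differed among themselves in an orderly way. For each of Th, Dbh, Slc6a2, Slc18a1, Slc18a2, Maoa, Ddc and Gch1 the level was highest in KO 01, intermediate in KO 18 and lowest in KO 19. KO 01 exceeded KO 19 by 6.31 times for Slc6a2, 5.25 times for Th, 4.91 times for Dbh, 3.39 times for Slc18a2, 2.80 times for Slc18a1 and 2.11 times for Maoa, but by only 1.45 times for Ddc and 1.79 times for Gch1. Expressed as CPM above the control mean, the increase of Slc18a2 was 0.560, 0.573 and 0.544 times that of Dbh in KO 01, 18 and 19. The increase of Th was 0.554, 0.453 and 0.429 times that of Dbh in the same libraries, and that of Slc6a2 was 1.73, 1.69 and 1.35 times. Maoa, although its fold change was small, gained about as many CPM as Dbh, at 1.10, 1.11 and 0.836 times the increase of Dbh. These ratios are not independent of the contrast that chose the genes.

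Leaving out KO 01 lowered the log2 fold change to 7.31 for Slc6a2, 6.83 for Dbh, 2.80 for Th, 1.72 for Slc18a2, 0.94 for Slc18a1 and 0.57 for Maoa. KO 01 was also the library with most Alb and the lowest acinar sum, and the part of this in the order was not tested.

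**Figure D2:**
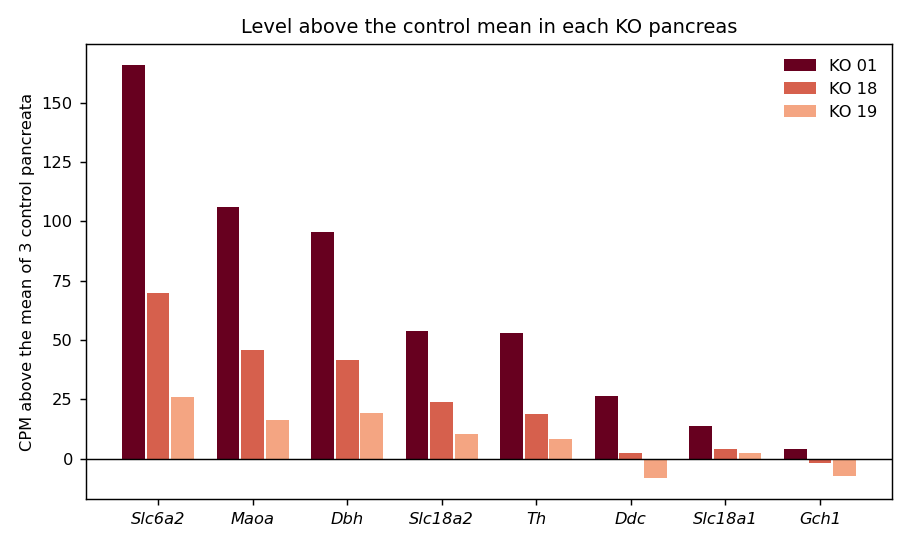
CPM above the mean of the 3 control pancreata (vertical axis) for each gene in KO pancreata 01, 18 and 19 (bars, 1 library each). The bars fall in the same order for every gene, from 166 to 26.1 CPM for Slc6a2. Ddc passes below 0 in KO 19, and Gch1 in KO 18 and KO 19.

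Levels of different genes were compared per kb of transcript. In KO pancreata the mean order was Ddc at 41.55 CPM per kb, Maoa at 29.0, Dbh at 23.1, Th at 16.6, Slc6a2 at 14.5, Slc18a2 at 9.71, Gch1 at 7.11 and Slc18a1 at 1.95. In control pancreata it was Ddc at 38.4 CPM per kb, Maoa at 15.5, Gch1 at 7.72, Slc18a2 at 1.99, Th at 1.28, Slc18a1 at 0.674, Dbh at 0.120 and Slc6a2 at 0.051. In KO pancreata each gene's range overlapped that of its neighbour in the order, except between Gch1 and Slc18a1, and in controls only the ranges of Dbh and Slc6a2 overlapped. Th per kb was 0.628, 0.304 and 0.174 times Ddc per kb in KO pancreata 01, 18 and 19, and 0.041, 0.022 and 0.041 times in control pancreata 02, 08 and 13. Ddc was above Th per kb in all 6 pancreata.

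Genes that surround this pathway were examined next, 124 in all with the marker genes of other cell types, of which 112 were fitted in pancreas. Of these 28 rose and 22 fell in KO pancreata (edgeR, adjusted p under 0.05), or 44.6% against 6.43% of all genes, and the lists were drawn up with earlier results of these data known. Without control 02, 08 or 13 no listed gene passed in edgeR. Of all genes, 0, 3 and 0 then passed as higher and 0, 1 and 0 as lower in KO pancreata. The median log2 fold change of all genes tested was -0.001.

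Of 7 tetrahydrobiopterin genes none rose and 1 fell, with a list median of -0.20. The one that fell was Pcbd1, which recycles the cofactor, at 115.5, 122.5 and 109.8 CPM in KO pancreata 01, 18 and 19, against 156.7, 159.3 and 136.9 CPM in control pancreata 02, 08 and 13 (log2 fold change -0.38, SE 0.076, edgeR adjusted p = 0.0324). With libraries scaled to pan-epithelial genes its log2 fold change was 0.03, and that of Aldh2 was 0.27. None of the 8 fitted genes of other breakdown and uptake routes passed, with a median of -0.10. Among them Aldh2, aldehyde dehydrogenase, was at -0.14 on the log2 scale (SE 0.080, edgeR adjusted p = 0.321). None of 5 genes of vesicle acidification and of the electron supply of Dbh passed, with a median of 0.14. Within that list Cyb561, the membrane cytochrome that supplies Dbh with electrons, averaged 65.6 ± 26.4 CPM in KO pancreata and 38.4 ± 0.535 CPM in controls (SD, n = 3 each), with every KO library above the controls and an edgeR adjusted p of 0.0975. It was chosen after its values were seen. Atp6v1b2 and Atp6ap2, of the vesicular proton pump, had log2 fold changes of 0.14 and 0.08 (edgeR adjusted p = 0.516 and 0.464).

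Transcription factors of noradrenergic neurons were higher. Of 9 genes 6 rose and none fell, with a list median of 2.30. Gata2 measured 45.5, 29.2 and 20.4 CPM in KO pancreata 01, 18 and 19, against 9.12, 7.89 and 9.54 CPM in control pancreata 02, 08 and 13 (log2 difference 1.84, SE 0.271, edgeR adjusted p = 0.0186). Gata3, which maintains Th and Dbh expression in sympathetic neurons, rose by 3.23 on the log2 scale (SE 0.507, edgeR adjusted p = 0.0209), and Tfap2b by 7.25. Without KO 01 the differences were 2.55 for Gata3, 1.49 for Gata2 and 6.37 for Tfap2b. Phox2a and Hand1 also rose. Isl1 and Hand2 did not pass, and Hand2, which mesenchyme expresses as well, averaged 73.1 ± 14.4 CPM in KO and 51.3 ± 7.21 CPM in control pancreata (SD, n = 3 each). This list summed to 167 to 364 CPM in KO pancreata and to 107 to 128 CPM in controls.

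Receptors and structural genes of neurons moved in the same direction. Of 8 sympathetic neuron receptor genes 4 rose, among them Chrna3, the ganglionic nicotinic receptor subunit, by 2.89 on the log2 scale (SE 0.422, edgeR adjusted p = 0.0186), Chrna7 by 1.90 and the neurotrophin receptor Ngfr by 1.26, with a list median of 1.18. The 4 others did not pass, and the sums of this list overlapped, at 199 to 318 CPM in KO and 154 to 200 CPM in control pancreata. Ret supplied most of these sums, at means of 133.8 CPM in KO and 124.3 CPM in controls, with overlapping groups (edgeR adjusted p = 0.745). Of 11 genes of neuron structure and release 10 rose, with a list median of 2.28. Prph, the intermediate filament peripherin, measured 113.5, 51.4 and 27.4 CPM in KO pancreata 01, 18 and 19, against 8.85, 7.22 and 6.67 CPM in control pancreata 02, 08 and 13 (log2 fold change 3.08, SE 0.490, edgeR adjusted p = 0.0215). Syt1, Stmn2 and Elavl3 rose by 3.17, 2.03 and 3.03, and Snap25 did not pass (edgeR adjusted p = 0.0604). Without KO 01 the log2 differences were 2.37 for Prph, 2.46 for Syt1, 1.50 for Stmn2, 2.29 for Elavl3 and 2.39 for Chrna3. Prph and Stmn2 had at least 6.67 CPM in every control pancreas, where Dbh and Slc6a2 had at most 0.560 CPM. The list of neuron structure and release summed to 305 to 1220 CPM in KO and to 143 to 149 CPM in control pancreata, in the library order of the catecholamine genes.

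Cholinergic and enteric neuron genes summed to 15.9 to 19 CPM in KO and 8.22 to 12 CPM in control pancreata. Of 5 fitted, 1 rose, Ache, acetylcholinesterase, at 1.94 (SE 0.374, edgeR adjusted p = 0.0298), and the list median was 0.34. Ache ran from 3.33 to 9.42 CPM in KO and from 1.49 to 1.60 CPM in control pancreata. The 4 other fitted genes overlapped between the genotypes, and without Ache the sums of the list overlapped too. Chat, which makes acetylcholine, was below the filter with 10 reads over the KO pancreata and 8 over the controls. Of 9 Schwann cell and glial genes 3 rose, among them Fabp7 at 1.42, and 1 fell, S100b at -0.61 (-0.20 with pan-epithelial scaling, edgeR adjusted p = 0.271), with a list median of 0.35. Their sums overlapped, at 182 to 215 CPM in KO and 178 to 200 CPM in control pancreata.

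Adrenal tissue lies near the dissected organ, and its markers were read beside Pnmt. Of 10 adrenal cortex genes 3 reached the filter and none passed, and the list summed to 6.67 to 10 CPM in KO and to 7.50 to 9.60 CPM in control pancreata. Cyp11b2 had no read in any pancreas, and Cyp11b1 and Cyp21a1 had none in KO pancreata and 1 each in controls. Cyp11a1, the first enzyme of steroid synthesis, measured 1.96, 2.91 and 4.40 CPM in KO pancreata 01, 18 and 19, against 3.97, 2.58 and 4.48 CPM in control pancreata 02, 08 and 13. Hsd3b1, a steroid dehydrogenase, had 15, 3 and 1 reads in KO pancreata 01, 18 and 19, against 1, 1 and 6 reads in control pancreata 02, 08 and 13. Cyp11a1 was thus lowest and Hsd3b1 highest in KO 01, the library with most Dbh. Star was at 0.46 and Akr1b7 at -0.60 on the log2 scale without passing (edgeR adjusted p = 0.354 and 0.108), and Nr5a1 had 1, 1 and 24 reads in KO pancreata 01, 18 and 19, against 6, 2 and 2 reads in control pancreata 02, 08 and 13. Of 6 further adrenal medulla genes 1 rose and 1 fell, and their sum was 273 to 402 CPM in KO and 378 to 446 CPM in control pancreata. Most of this sum came from Chga and Chgb, at means of 95.95 and 155.5 CPM in KO and 166.8 and 183.7 CPM in controls. Both were abundant in control islets, at means of 12610 and 1959 CPM. The sum therefore does not give the direction of the rest of the list. Dgkk rose, at 8.42, 5.89 and 5.88 CPM in KO pancreata 01, 18 and 19, against 3.10, 3.81 and 2.41 CPM in control pancreata 02, 08 and 13 (log2 fold change 1.12, SE 0.226, edgeR adjusted p = 0.0338). Chga, a granule protein shared by islet and chromaffin cells, fell by 0.80 on the log2 scale (edgeR adjusted p = 0.0261), and was at -0.398 with pan-epithelial scaling, not passing (edgeR adjusted p = 0.0542). Npy, a peptide of sympathetic neurons as well as chromaffin cells, measured 45.5, 17.1 and 11.5 CPM in KO pancreata 01, 18 and 19, against 14.2, 11.3 and 14.8 CPM in control pancreata 02, 08 and 13. It followed the KO order of the catecholamine genes, with KO 19 within the range of the controls, and did not pass (log2 fold change 0.88, SE 0.448, edgeR adjusted p = 0.26). Penk was at -0.14, Chgb at -0.24 and Cartpt at -0.13 without passing. The part of adrenal tissue in the levels of the catecholamine genes was not tested.

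Islet endocrine cells also express Th and Ddc, and their marker genes were lower. Of 11 genes 8 fell and none rose, with a list median of -0.68 and sums of 758 to 1290 CPM in KO and 2020 to 2680 CPM in control pancreata. Neurog3, the factor that specifies endocrine cells, fell by 0.65 and Insm1 by 0.66 (edgeR adjusted p = 0.0166 and 0.021), in the libraries in which Ddc overlapped the controls. With pan-epithelial scaling they were at -0.245 and -0.261 and did not pass (edgeR adjusted p = 0.0501 and 0.0982). The hormone genes Ins1 and Ins2 were at -1.25 and -1.16 (edgeR adjusted p = 0.0176 and 0.0198). Over all settings, that scaling included, Ins1 ran from -1.4 to -0.86 and Ins2 from -1.32 to -0.764. Pan-epithelial genes also fell, 10 of 15, and 3 of 7 smooth muscle and mesenchyme genes rose (Myh11, Cnn1 and Acta2). The acinar list had 1 gene that fell, Ptf1a, of 6, at 0.14 with pan-epithelial scaling. The part of these other cell types in the levels of the catecholamine genes was not tested.

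**Figure D3:**
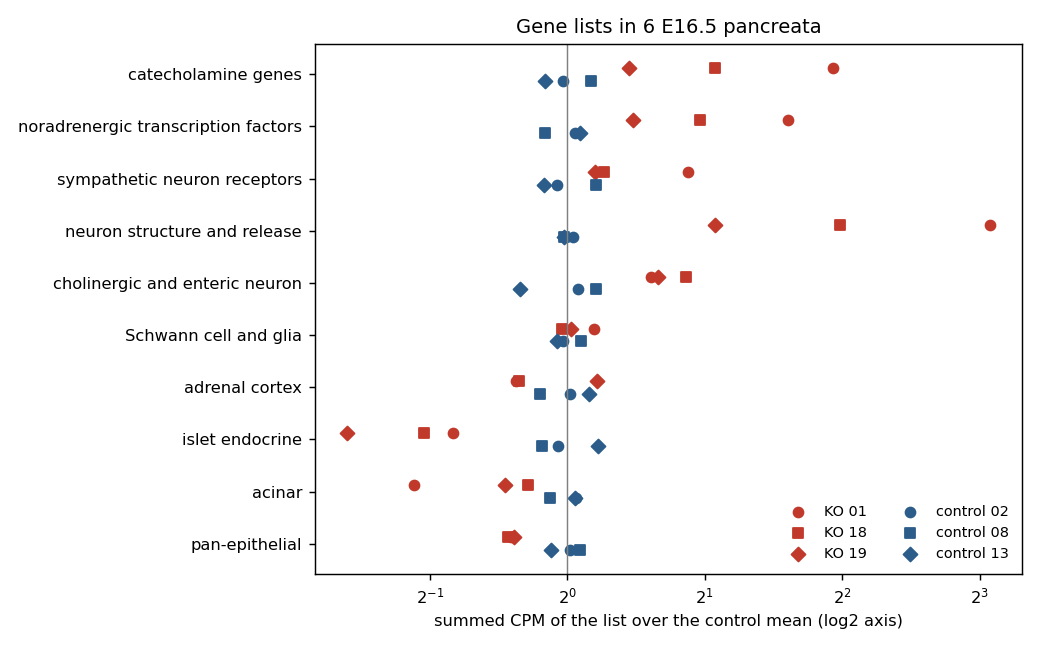
Summed CPM of each gene list in 6 E16.5 pancreata, divided by the mean of the 3 controls (horizontal log2 axis; red KO, blue control, 1 point per library). Neuron structure genes reach 305 to 1220 CPM in KO against 143 to 149 CPM in control pancreata, adrenal cortex genes overlap, and islet endocrine genes lie lower in all KO libraries.

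The genes whose profile over the 6 pancreata was most like that of Dbh were sought among 13646 fitted genes with a mean of at least 1 CPM, clone-named genes left out, by the root mean square difference in log2 CPM after centring each gene. The closest was Tfap2b, a transcription factor of neural crest derivatives, at a difference of 0.385, and the next was Slc6a2 at 0.435. Vwc2l at 1.10, Insm2 at 1.19, Tbx20 at 1.52, Cacng5 at 1.56, Slc38a11 at 1.57 and B3gat1 at 1.71 followed at a distance. Tfap2b measured 52.5, 22.6 and 7.66 CPM in KO pancreata 01, 18 and 19, against 0.091, 0.168 and 0.287 CPM in control pancreata 02, 08 and 13. All of these genes were low in the 3 controls and ordered 01, 18, 19 among the KO libraries, which is what the measure selects for.

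Islets of 60-week males were not used to choose the genes, and there the comparison of genotypes was tested. None of the 6 genes fitted passed in edgeR, none at an unadjusted p under 0.05, and none passed in DESeq2 or limma-voom, where 0.155% of all 14219 genes passed in edgeR, 0.113% higher and 0.0422% lower. In all 6 the genotypes overlapped, where 0.781% of all genes had every KO islet library above every control and 0.774% every one below. Th measured 48.0, 147, 109, 203 and 157 CPM in KO islets 055, 122, 803, 812 and 845, against 40.0, 132, 139, 85.3 and 87.7 CPM in control islets 052, 826, 829, 857 and 858. The groups overlapped widely, with KO 055 and control 052 the lowest of each, and the log2 fold change was 0.45 (SE 0.361, edgeR adjusted p = 0.862). Ddc averaged 497 ± 45.0 CPM in KO and 484 ± 21.9 CPM in control islets, and Gch1 163 ± 7.66 and 165 ± 8.37 CPM (SD, n = 5 each). Their log2 fold changes were 0.04 (SE 0.060, edgeR adjusted p = 0.953) and -0.02 (SE 0.046, edgeR adjusted p = 0.977).

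Of the genes of later steps, Dbh, Slc6a2 and Pnmt were nearly absent from islets, while Slc18a1 and Maoa were not. Dbh had 18 reads over the 5 KO islet libraries and 38 over the 5 controls, and Slc6a2 had 15 and 18, too few to enter the fit. Pnmt had no read in any of the 10 islet libraries, where a floor of 3 reads equals 0.0896 to 0.134 CPM. Slc18a1 averaged 17.8 ± 1.08 CPM in KO and 18.7 ± 3.02 CPM in control islets, and Slc18a2 1.74 ± 0.735 and 2.05 ± 0.826 CPM (SD, n = 5 each), with log2 fold changes of -0.07 (SE 0.096) and -0.23 (SE 0.332) and edgeR adjusted p of 0.931 and 0.939. Maoa averaged 21.8 ± 0.790 CPM in KO and 22.7 ± 1.90 CPM in control islets, or -0.05 on the log2 scale (SE 0.060, edgeR adjusted p = 0.909).

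Ratios between the genes within a library were set side by side for both tissues, with no test. Per kb, Slc18a2 exceeded Slc18a1 in every pancreas and was 0.0538 to 0.233 times Slc18a1 in every islet library. KO pancreata had 0.575, 0.504 and 0.538 reads of Th for each read of Dbh in libraries 01, 18 and 19. Control pancreata 02, 08 and 13 had 20, 5.17 and 6.5, resting on 3, 6 and 6 reads of Dbh. The islet library with most Dbh, control 857, had 72.1 reads of Th for each read of Dbh. Tissue, age and isolation differ together between pancreata and islets and cannot be told apart. Of 100 listed genes fitted in islets none passed in edgeR. Among the listed genes DESeq2 called 3, among them Nefm and Slc29a4.

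**Figure D4:**
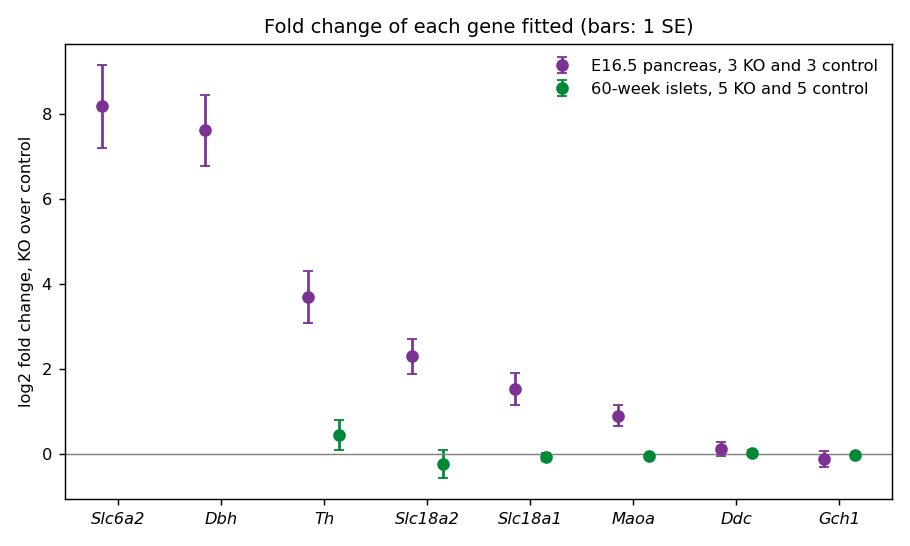
Log2 fold change of KO over control (vertical axis, bars 1 SE) for each gene fitted in E16.5 pancreas (purple) and in islets (green). The pancreas values run from 8.17 for Slc6a2 to -0.11 for Gch1 and chose the genes, and the islet values lie between -0.23 and 0.45, with Slc6a2 and Dbh not fitted there.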

How the data were processed

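The values analysed are unnormalized counts as the authors deposited them. Per the submitters' processing notes, the tools were HTSeq 0.11.1, STAR 2.6.0, Trimmomatic and edgeR, and the build was mm10, without the role of any. No source used here states the annotation version or strand use. Per the file headers a gene length in kb accompanies each gene, used for levels per kb. Each tissue was fitted by itself with the quasi-likelihood test of edgeR 4.0.16 (R 4.3.3, TMM scaling, filterByExpr), with Benjamini-Hochberg adjustment over all 14914 or 14219 genes tested and a threshold of 0.05. Each standard error is the absolute log2 fold change over the root of F. Alternatives used other scalings, no filter, DESeq2 1.42.0, limma 3.58.1 (voom with quality weights) and each library left out. The test was tested on simulated data.

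The members and gene lists were chosen with earlier results of these data known. Named besides the members were, per list, up to 4 genes with the lowest p past the threshold or the 2 most abundant, and the 8 genes most like Dbh. Others named, such as Hand2, Hand1, Phox2a, Cyb561, Snap25, Isl1, Ret, Slc6a3, Chat, Penk, Chgb, Cartpt, Npy, Star, Hsd3b1, Nr5a1 and the cortex genes without reads, were chosen after their values were seen. Some genes of the lists are counted but not reported by name here. The labels give each library its own animal number, no pair of libraries of a group agreed within sampling noise (lowest chi-square per degree of freedom 4.9 in pancreata and 6.28 in islets), and litters are not given, so p-values measure the spread between these animals. Intervals and floors cover counting error only.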

Additional observations from a re-analysis of the deposited data

Results flagged for a closer look

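Among 16 sets of islet values examined, 1 library lay far from the others of its group, where chance alone sets 1 in 20 such groups apart. Control islet 857 had 1.18 CPM of Dbh (34 reads), against 0 to 0.0792 CPM in the 4 other control libraries. The same library had the highest Slc6a2, at 0.383 CPM, and the highest Slc18a2, at 3.10 CPM, of all 10 islet libraries.

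Maoa lay on opposite sides of the control mean in the tissues. Every KO pancreas lay above the control mean (log2 fold change 0.903) and every KO islet library lay below the control mean (-0.0541). The difference between the tissues was not tested, because the pancreas contrast was used to choose the genes, and the islet value lay within 1 SE of 0, with overlapping groups (edgeR adjusted p = 0.909).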

How the results depend on the processing

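No paired analysis was possible because the animal numbers are not shared between groups. At E16.5 the 959 genes called became 9798 when libraries were scaled to 15 epithelial genes, which moved the median of all genes by 0.404, and 1548 with DESeq2. The split of 560 higher and 399 lower became 779 and 179 with library totals and 9755 and 43 with epithelial scaling. With 1 library left out the count ran from 0 to 1035, that of the 50 listed genes called from 0 to 58 and that of the 4 members called from 0 to 6. Each 0 came from leaving out a control. Epithelial scaling called 7 members. In islets 22 genes were called, 111 with DESeq2 and 5 to 26 with 1 library left out, and the listed genes called were 0, or 3 with DESeq2.

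The E16.5 log2 fold change ranged over all settings from 7.31 to 8.89 for Slc6a2, 6.83 to 8.01 for Dbh, 2.80 to 4.09 for Th, 1.72 to 2.70 for Slc18a2, 0.939 to 1.95 for Slc18a1 and 0.573 to 1.32 for Maoa, lowest without KO 01 for each of these. Ddc and Gch1 changed sign, between -0.0434 and 0.532 and between -0.34 and 0.291, both highest with epithelial scaling. That scaling turned Pcbd1 to 0.0297, Aldh2 to 0.268, Cyp11a1 to 0.133 and Ptf1a to 0.145. Leaving out 1 library turned the sign of Atp6v1b2 (-0.0102 to 0.264), Cyp11a1 (-0.604 to 0.00367) and Slc6a4 (-0.0229 to 0.138). In islets Gch1 was 0.00556 with library totals and 0.00604 with limma-voom, and with 1 library left out Gch1 ran from -0.037 to 0.0133, Ddc from -0.0187 to 0.0634 and Slc18a1 from -0.12 to 0.031. Beyond construction of the scalings the cause was not tested. Depth limits Pnmt in both tissues and Dbh and Slc6a2 in islets.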

Other observations

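Other amine routes were measured in the same libraries. Hdc, which makes histamine, measured 20.9, 40.1 and 37.2 CPM in KO pancreata 01, 18 and 19, against 29.1, 20.3 and 31.6 CPM in control pancreata 02, 08 and 13 (edgeR adjusted p = 0.529), so KO 01, highest for every catecholamine gene, was the lowest KO library. Slc6a4, the serotonin transporter, lay between 6.27 and 7.92 CPM in all 6 pancreata. Tph1 and Tph2, the enzymes that commit tryptophan to serotonin, had 35 and 6 reads over the KO and 41 and 8 reads over the control pancreata. Maob, the second monoamine oxidase, averaged 16.9 ± 4.66 CPM in KO and 20.3 ± 1.67 CPM in control pancreata (SD, n = 3 each), and 242 ± 15.4 CPM in KO and 249 ± 9.79 CPM in control islets (SD, n = 5 each). Per kb, Maob averaged 7.03 CPM in KO and 8.47 CPM in control pancreata, below Maoa at 29.0 and 15.5, and 101.1 CPM in KO and 103.7 CPM in control islets, above Maoa at 5.27 and 5.47.

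In islets the vesicular transporter of neurons and Th had different library orders, described here after their values were seen. KO islet 812 had the lowest Slc18a2, at 0.671 CPM, and also the lowest Prph, at 1.61 CPM, and Stmn2, at 5.50 CPM, yet the highest Th, at 203 CPM. Control islet 857 had the highest Slc18a2, at 3.10 CPM, with the highest Prph at 10.6 CPM and Stmn2 at 20.2 CPM, and 85.3 CPM of Th.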
